A study of Homo sapiens with 6 samples.

Results

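The mitochondrial protein import and chaperone genes examined here were the protein-coding genes whose GENCODE symbol begins with TIMM or TOMM and a number, together with 16 genes named individually (HSPD1, HSPE1, HSPA9, TRAP1, PHB, PHB2, PAM16, DNAJC19, GRPEL1, GRPEL2, PMPCA, PMPCB, CLPP, CLPX, LONP1 and AFG3L2). They came to 41 of the 58096 genes listed, of which 10 are TOMM genes and 15 TIMM genes. Of the 41, 39 had enough reads to be tested, among 13975 tested genes. The RNA came from ALL-SIL, an established line of T-cell acute lymphoblastic leukaemia, and was sequenced in 3 JQ1 libraries and 3 DMSO libraries. JQ1 blocks the acetyl-lysine pockets of BET proteins and so releases them from chromatin, and DMSO is its solvent. The treatment text gives 1 µM JQ1 for 24 h for every library, the DMSO libraries included, so the groups rest on the titles, and what the controls received is not described further. All cells grew with 20% fetal bovine serum. ALL-SIL is a single line, and no label states that replicates came from separate cultures; the p-values therefore rest on spread among libraries that may be technical.

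Nearly all mitochondrial proteins are made in the cytosol and pass through the TOM complex of the outer membrane. Precursors with a cleavable presequence then enter the matrix through the TIM23 channel, pulled by an ATP-driven motor around HSPA9, and lose the presequence to the processing peptidase, whereas metabolite carriers are escorted by small TIM chaperones to the TIM22 complex. In the matrix the chaperonin of HSPD1 and HSPE1 folds many of the arriving proteins, and proteases such as CLPP and LONP1 remove those that fail. Growing cells need this route for building mitochondria, and several of its genes are known targets of MYC, a transcription factor whose RNA falls under BET inhibition in many leukaemia cells.

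Gene counts per library ran from 15925885 to 25293884. Levels are given in CPM, a gene's count scaled to a library size normalised across the 6 libraries, and changes on the log2 scale for JQ1 relative to DMSO, with the standard error (SE) after ±, from edgeR's quasi-likelihood test, with p-values adjusted by Benjamini-Hochberg over all tested genes and called below 0.05. The readouts of BET inhibition fitted the labels. MYC averaged 135 CPM in JQ1 and 358.5 CPM in DMSO, and HEXIM1, which holds P-TEFb inactive, averaged 89.3 CPM in JQ1 and 29.8 CPM in DMSO. Of 8 genes listed as T-lineage markers 7 fell, namely CD3D, CD3E, CD3G, CD7, CD2, CD5 and LCK. The other, TLX1, a leukaemia oncogene rather than a lineage marker, rose, with 249 CPM in JQ1 and 182 CPM in DMSO. Over all tested genes 20.6% fell and 15.9% rose. The summed level of the 8 genes, TLX1 included, was 893 to 1138 CPM in JQ1 and 1471 to 1657 CPM in DMSO. Of 16 markers of B, myeloid, erythroid, epithelial and fibroblast cells, CD79A, a chain of the B-cell receptor, was the one with enough reads to be tested, at 0.451 to 5.05 CPM in JQ1 and 3.83 to 12.1 CPM in DMSO. The summed level of these 16 markers was 1.23 to 5.58 CPM in JQ1 and 4.77 to 12.96 CPM in DMSO, with MS4A1, MPO, HBG1, HBB and COL1A2 at 0 in every library. What part these markers have in the results was not tested.

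The import and chaperone genes were lower under JQ1 as a group, by modest amounts. In JQ1 their summed level was 2732, 2367 and 2584 CPM in replicates 1, 2 and 3, against 3313, 2876 and 3108 CPM in DMSO replicates 1, 2 and 3. Every JQ1 library lay below every DMSO library. The means were 2561 ± 184 CPM in JQ1 and 3099 ± 218 CPM in DMSO (SD, n = 3 each), a ratio of 0.826 (2-sided exact permutation test, p = 0.1, the smallest that 3 against 3 libraries can give). Within libraries of the same replicate number the ratio was 0.825, 0.823 and 0.831, although the level itself differed between numbers, with replicate 1 highest and replicate 2 lowest in both groups. These are shares of the RNA sequenced from a whole culture, in which fewer cells making an RNA and less of it per cell cannot be told apart.

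Of the 39 tested genes 17 fell, which is 43.6%, and 1 rose, which is 2.56%. Over all tested genes 20.6% fell and 15.9% rose, and over tested protein-coding genes 24.3% fell and 17.0% rose. The median log2 change of the 39 was -0.23, beside 0.0036 over all tested genes and -0.03 over tested protein-coding genes, and 32 of the 39 changes were below 0. The libraries of the groups did not overlap for 19 genes in the lower direction and 2 in the higher one, where 26.0% and 22.9% of all tested genes did so. With the replicate number as a block, 24 of the 39 fell and 3 rose, beside 29.6% and 27.3% of all tested genes. When the test asked for more than a 1.5-fold change, CLPP and TOMM40L passed, which is 2 of 39, both lower, and 0 were higher, beside 6.43% lower and 1.76% higher of all tested genes by that test.

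**Figure D1:**
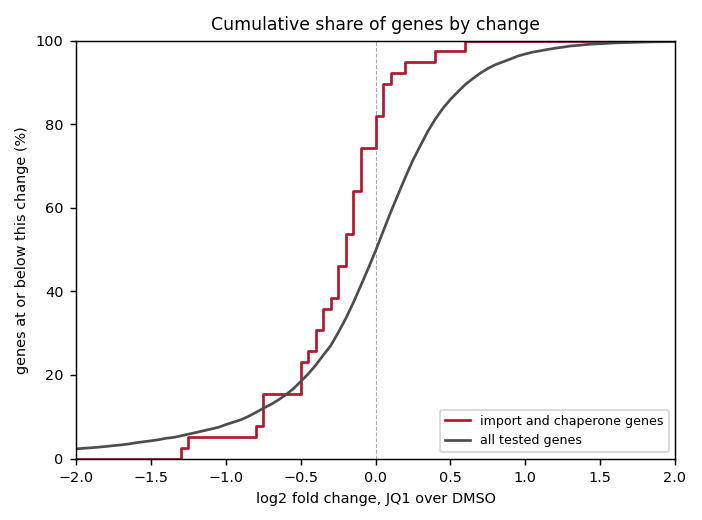
Cumulative share of genes (y axis, percent) at or below each log2 change of JQ1 over DMSO (x axis) for the 39 tested import and chaperone genes (red) and all 13975 tested genes (grey). Of the import and chaperone genes 82.1% lay at or below 0, against 49.7% of all tested genes, whereas 5.13% and 8.13% lay at or below -1.

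**Figure D2:**
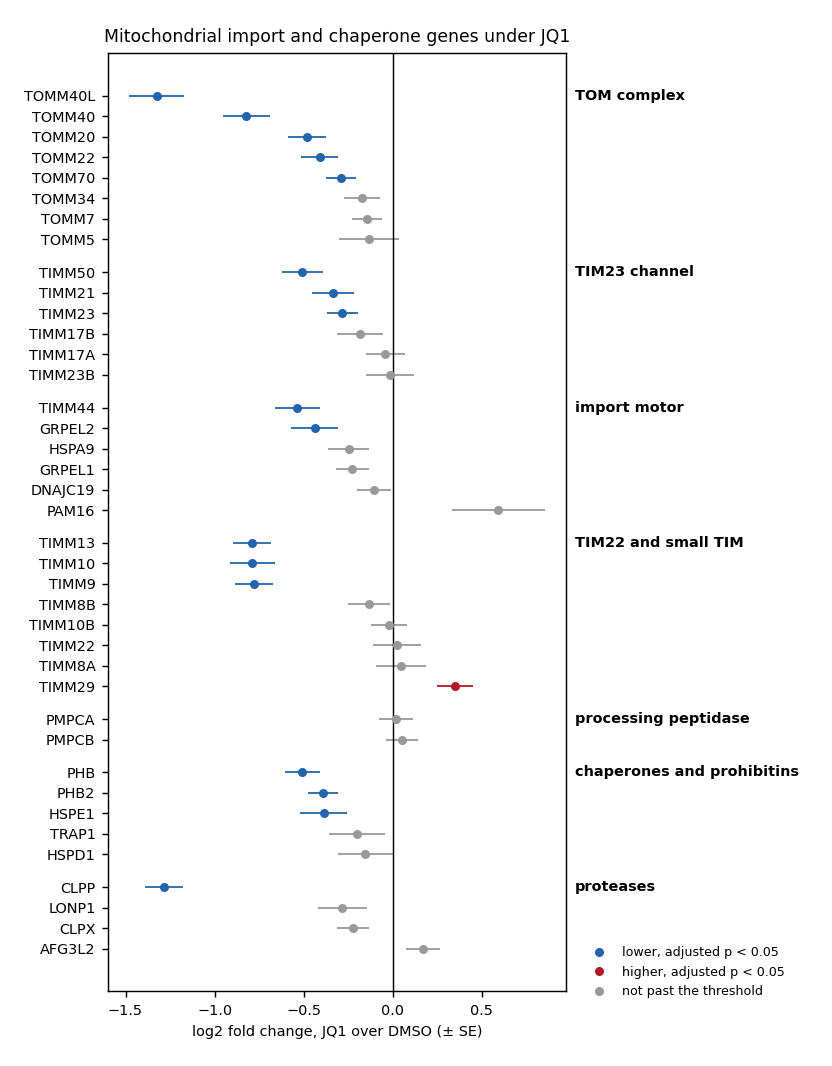
Log2 change of JQ1 over DMSO (x axis) with SE for each of the 39 tested genes, arranged by role. Blue points are called lower, the red point is called higher and grey points did not pass the threshold; TOMM40L and CLPP stand farthest to the left, and PAM16 and TIMM29 farthest to the right.

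Of the role groups, the TOM complex had the lowest summed level relative to DMSO. Its summed level was 567, 513 and 535 CPM in JQ1 replicates 1, 2 and 3, against 761, 696 and 710 CPM in DMSO, a ratio of 0.745 (exact permutation p = 0.1, the smallest possible). Of 8 tested genes 5 fell, which is 62.5%, and 0 rose, beside 20.6% and 15.9% of all tested genes. All 8 changes were below 0, where 49.7% of all tested genes were. At an unadjusted p under 0.05 the count that was higher was also 0, as with DESeq2 and limma-voom. TOMM40, the barrel-shaped channel through which precursors cross the outer membrane, had 63.9, 48.2 and 62.5 CPM in JQ1 replicates 1, 2 and 3, against 108, 86.8 and 114 CPM in DMSO. The groups did not overlap, and the fall was 1.77-fold (log2 change -0.82 ± 0.13, edgeR adjusted p = 0.001). TOMM40L, its less abundant paralogue on chromosome 1, had 11.1, 12.1 and 7.74 CPM in JQ1, against 24.9, 27.1 and 26.1 CPM in DMSO. That was the largest fall among the 39 genes, at 2.51-fold (log2 change -1.33 ± 0.16, edgeR adjusted p = 0.00016). JQ1 replicate 3 was the lowest of the libraries for TOMM40L, and without it the log2 change was -1.17. The ratio of TOMM40 to TOMM40L reads was 5.75, 3.98 and 8.08 in JQ1, against 4.33, 3.21 and 4.34 in DMSO, and averaged 5.93 ± 2.06 in JQ1 and 3.96 ± 0.653 in DMSO (exact permutation p = 0.3).

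The receptors of the complex had smaller log2 changes than the channel genes, a difference that was not tested. TOMM20, which binds presequences, had 150, 123 and 130 CPM in JQ1, against 208.5, 180 and 175 CPM in DMSO (log2 change -0.48 ± 0.11, edgeR adjusted p = 0.0057). TOMM22, the receptor that holds the complex together, averaged 63.3 ± 6.01 CPM in JQ1 and 84.1 ± 7.89 CPM in DMSO (log2 change -0.41 ± 0.10, edgeR adjusted p = 0.01). TOMM70, the receptor for carrier precursors handed over by cytosolic chaperones, averaged 171 ± 3.67 CPM in JQ1 and 209 ± 7.07 CPM in DMSO (log2 change -0.29 ± 0.08, edgeR adjusted p = 0.02). The TOMM70 call was lost when any library other than DMSO replicate 3 was left out (log2 changes -0.30 to -0.27, edgeR adjusted p 0.053 to 0.062). The small subunits TOMM5 and TOMM7 had log2 changes of -0.13 and -0.15, and TOMM34, a cytosolic co-chaperone, had -0.17, and none of these passed the test (edgeR adjusted p from 0.20 to 0.57). TOMM7 was called lower with the block (edgeR adjusted p = 0.047).

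Of the 41 genes, TOMM6 and TOMM20L had 0 counts in all 6 libraries. For TOMM6 the 0 does not measure the RNA: all of its 637 exonic bases lie within exons of AL365205.1 on the same strand, and reads that fit several genes were not counted. AL365205.1 itself had 7 to 30 counts in JQ1 and 21 to 23 in DMSO. TOMM20L, a paralogue of TOMM20, shares 27.9% of its exonic bases with TIMM9 on the opposite strand and none on its own.

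Promoter windows of 300 bases, from 250 before to 50 after the annotated start, were available from RefSeq (GRCh38.p14) for 37 of the 41 genes. The windows of TOMM20 and TOMM40L are shown. TOMM20 is the receptor of the complex whose window holds the E-box CACGTG, the letters that MYC with its partner MAX is known to bind. TOMM40L is the gene with the largest fall, and its window holds no E-box. The windows were picked on these grounds, and a link between an E-box and the size of a fall was not tested. Both are printed 5′ to 3′ on the strand of the gene, with the E-box in capitals; TOMM20 is chr1:235128788-235129087 on the minus strand and TOMM40L chr1:161225810-161226109 on the plus strand.
TOMM20: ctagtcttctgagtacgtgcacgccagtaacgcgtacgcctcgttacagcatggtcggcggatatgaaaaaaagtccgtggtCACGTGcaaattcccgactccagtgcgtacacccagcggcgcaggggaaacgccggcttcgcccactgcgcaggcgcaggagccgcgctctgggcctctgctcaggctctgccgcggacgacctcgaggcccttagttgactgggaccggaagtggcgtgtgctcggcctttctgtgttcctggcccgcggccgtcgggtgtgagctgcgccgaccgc
TOMM40L: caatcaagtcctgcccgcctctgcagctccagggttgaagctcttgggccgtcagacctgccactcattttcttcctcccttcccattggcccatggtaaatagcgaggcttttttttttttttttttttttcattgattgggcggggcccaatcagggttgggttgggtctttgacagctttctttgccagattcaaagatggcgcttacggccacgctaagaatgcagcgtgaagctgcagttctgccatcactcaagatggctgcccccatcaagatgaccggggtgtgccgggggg
The E-box reads the same on both strands. It was present for 3 of 16 genes that fell and have a window (TIMM10, TOMM20 and HSPE1) and for 4 of 19 tested genes that did not (HSPA9, HSPD1, LONP1 and TIMM8A), beside 10.9% of 15843 protein-coding genes with windows of this length. In TOMM20 it lies 168 to 163 bases before the start. The letters CCAAT, searched on both strands, were in the window of TOMM40L and of TOMM40, and of 42.1% of protein-coding genes. Such matches describe these windows and say nothing of what binds them.

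The TIM23 channel of the inner membrane was lower in sum, at 230, 207 and 217 CPM in JQ1 replicates 1, 2 and 3, against 281, 238 and 262 CPM in DMSO (exact permutation p = 0.1, the smallest possible). Of 6 tested genes 3 fell and 0 rose, also 0 at an unadjusted p under 0.05 and with DESeq2 and limma-voom. The shares over all tested genes by edgeR were 20.6% lower and 15.9% higher. With 6 genes such a count says little of the channel as a group. TIMM50, the receptor that takes presequences from TOM, had 53.8, 45.3 and 45.2 CPM in JQ1, against 79.0, 62.1 and 64.5 CPM in DMSO, which do not overlap (log2 change -0.51 ± 0.12, edgeR adjusted p = 0.0063). TIMM23, the channel protein, had 50.4, 47.0 and 52.5 CPM in JQ1, against 64.2, 57.8 and 60.4 CPM in DMSO (log2 change -0.28 ± 0.09, edgeR adjusted p = 0.027). TIMM21, which tethers the channel to TOM, had 18.8, 16.5 and 18.4 CPM in JQ1, against 23.8, 20.1 and 24.1 CPM in DMSO (log2 change -0.34 ± 0.12, edgeR adjusted p = 0.045). The calls on TIMM23 and TIMM21 were lost in most fits with 1 library left out, though the log2 changes stayed below 0 in each. Leaving out JQ1 replicate 1 or 2 or DMSO replicate 1 or 3 ended the TIMM23 call (edgeR adjusted p 0.054 to 0.091, log2 changes -0.29 to -0.24). Leaving out any library but DMSO replicate 2 ended the TIMM21 call (edgeR adjusted p 0.07 to 0.13, log2 changes -0.37 to -0.28). DESeq2 (0.056), limma-voom (0.051) and upper-quartile factors in edgeR (0.052) also gave adjusted p-values for TIMM21 above the threshold.

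The TIMM17 paralogues, alternative partners of TIMM23, did not pass the test. TIMM17A had 67.0, 55.9 and 59.0 CPM in JQ1 replicates 1, 2 and 3, against 71.3, 56.3 and 59.8 CPM in DMSO. TIMM17B had 28.9, 33.3 and 30.5 CPM in JQ1, against 31.7, 31.5 and 42.02 CPM in DMSO. Their libraries overlap. The ratio of TIMM17A to TIMM17B reads was 2.32, 1.68 and 1.94 in JQ1, against 2.25, 1.79 and 1.42 in DMSO, and averaged 1.98 ± 0.323 in JQ1 and 1.82 ± 0.414 in DMSO (exact permutation p = 0.7). TIMM23B, a near-identical copy of TIMM23 on chromosome 10, averaged 10.7 CPM in JQ1 and 10.8 CPM in DMSO; reads that fit TIMM23 and TIMM23B equally were not counted, so both levels are uncertain.

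The import motor had 2 of 6 genes lower and 0 higher by edgeR, DESeq2 and limma-voom, and 1 higher at an unadjusted p under 0.05. By edgeR 33.3% fell, beside 20.6% lower and 15.9% higher of all tested genes. With 6 genes such a count says little of the motor as a group. TIMM44, the scaffold that holds the motor at the channel, had 37.1, 32.0 and 36.9 CPM in JQ1 replicates 1, 2 and 3, against 50.7, 43.1 and 59.6 CPM in DMSO (log2 change -0.53 ± 0.12, edgeR adjusted p = 0.0073). GRPEL2, a nucleotide exchange factor of HSPA9, had 11.8, 10.9 and 14.3 CPM in JQ1, against 17.5, 15.95 and 16.6 CPM in DMSO (log2 change -0.44 ± 0.13, edgeR adjusted p = 0.026). The groups did not overlap for either gene, but leaving out JQ1 replicate 1 or 2 or DMSO replicate 1 or 3 ended the GRPEL2 call (edgeR adjusted p 0.056 to 0.087, log2 changes -0.44 to -0.36). GRPEL1, the more abundant exchange factor, had 47.6, 43.2 and 44.1 CPM in JQ1, against 56.8, 48.9 and 52.1 CPM in DMSO (log2 change -0.23 ± 0.09, edgeR adjusted p = 0.078, and 0.0049 with the block). The ratio of GRPEL1 to GRPEL2 reads was 4.02, 3.95 and 3.08 in JQ1, against 3.25, 3.07 and 3.13 in DMSO, and averaged 3.68 ± 0.522 in JQ1 and 3.15 ± 0.0923 in DMSO (exact permutation p = 0.3).

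HSPA9, the motor's chaperone of the HSP70 family and after HSPD1 the gene with the most reads of the 41, averaged 269 ± 30.7 CPM in JQ1 and 319 ± 31.5 CPM in DMSO. Its log2 change of -0.25 ± 0.12 did not pass the test (edgeR adjusted p = 0.12), but it was lower in each of the 3 same-numbered pairs, by log2 differences of -0.25, -0.30 and -0.20, and was called with the block (edgeR adjusted p = 0.0012). PAM16, which restrains the J-proteins that stimulate HSPA9, had a log2 change above 0, with 2.14, 2.25 and 2.97 CPM in JQ1 and 1.38, 1.38 and 2.05 CPM in DMSO (log2 change 0.59 ± 0.26, edgeR adjusted p = 0.10, and 0.02 with the block). PAM16 was called higher when DMSO replicate 3 was left out (log2 change 0.82, edgeR adjusted p = 0.049). Reads over the 21.9% of PAM16's exonic bases that lie in the read-through gene CORO7-PAM16 could not be assigned, and CORO7-PAM16 had 0 counts in all libraries. DNAJC19, one of those J-proteins, had a log2 change of -0.11 ± 0.09.

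The small TIM chaperones, which carry hydrophobic precursors across the space between the membranes, came out unevenly: TIMM13, TIMM9 and TIMM10 fell, by nearly the same amount, and 3 others did not pass the test. Of the 8 genes of the TIM22 route 3 fell and 1 rose, which is 37.5% and 12.5%, with a median log2 change of -0.08. Of all tested genes 20.6% fell and 15.9% rose. TIMM13, which in its complex pairs with TIMM8A, had 36.3, 30.4 and 35.3 CPM in JQ1 replicates 1, 2 and 3, against 61.5, 52.0 and 62.5 CPM in DMSO (log2 change -0.79 ± 0.11, edgeR adjusted p = 0.00038). TIMM9 had 13.9, 13.2 and 13.9 CPM in JQ1, against 22.3, 23.4 and 24.3 CPM in DMSO (log2 change -0.78 ± 0.11, edgeR adjusted p = 0.00038). TIMM10, which forms a ring with TIMM9, had 8.203, 8.21 and 9.15 CPM in JQ1, against 14.8, 14.1 and 15.1 CPM in DMSO (log2 change -0.79 ± 0.13, edgeR adjusted p = 0.0009). The libraries within each group lay close together for all 3 genes, and each call held without any single library. On GRCh38 (GENCODE), TIMM9 lies on chromosome 14 from 58408494 to 58427614, TIMM10 on chromosome 11 from 57528463 to 57530803 and TIMM13 on chromosome 19 from 2425624 to 2427894. Reads over 13.03% of TIMM13's exonic bases, which lie in exons of LMNB2 on the same strand, could not be assigned.

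The other small TIM genes did not pass the test. TIMM8A had 12.7, 11.8 and 15.3 CPM in JQ1 replicates 1, 2 and 3, against 11.8, 12.8 and 13.9 CPM in DMSO. TIMM8B, its relative, had 25.7, 28.4 and 21.5 CPM in JQ1, against 26.9, 27.8 and 28.5 CPM in DMSO. TIMM10B, which sits at the TIM22 complex, had 62.03, 55.5 and 51.2 CPM in JQ1, against 60.1, 59.4 and 52.2 CPM in DMSO. The libraries overlap for each of these genes. Reads over 13.5% of TIMM10B's exonic bases, which lie in exons of AC084337.2 on the same strand, could not be assigned. The ratio of TIMM10 to TIMM10B reads was 0.132, 0.148 and 0.179 in JQ1, against 0.2465, 0.238 and 0.289 in DMSO. These ratios do not overlap (exact permutation p = 0.1, the smallest possible, and 0.225 adjusted over the 9 ratios compared). The carrier channel gene TIMM22 averaged 12.8 CPM in JQ1 and 12.6 CPM in DMSO. The ratio of TIMM8A to TIMM8B reads was 0.4945, 0.4165 and 0.715 in JQ1, against 0.438, 0.4625 and 0.487 in DMSO, and averaged 0.542 ± 0.155 in JQ1 and 0.462 ± 0.0245 in DMSO (exact permutation p = 0.6). TIMM29, a subunit of the human TIM22 complex, was the 1 gene of the 39 that rose, with 34.8, 33.6 and 32.5 CPM in JQ1, against 28.7, 24.5 and 26.1 CPM in DMSO (log2 change 0.35 ± 0.10, edgeR adjusted p = 0.019). The TIMM29 call was lost without JQ1 replicate 1 (0.33, edgeR adjusted p = 0.065) and without DMSO replicate 2 (0.30, edgeR adjusted p = 0.073).

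The windows of TIMM9 and TIMM10 are shown because these ring partners fell alike; TIMM9 is chr14:58427482-58427781 and TIMM10 chr11:57530705-57531004, both on the minus strand, printed 5′ to 3′ with any E-box in capitals.
TIMM9: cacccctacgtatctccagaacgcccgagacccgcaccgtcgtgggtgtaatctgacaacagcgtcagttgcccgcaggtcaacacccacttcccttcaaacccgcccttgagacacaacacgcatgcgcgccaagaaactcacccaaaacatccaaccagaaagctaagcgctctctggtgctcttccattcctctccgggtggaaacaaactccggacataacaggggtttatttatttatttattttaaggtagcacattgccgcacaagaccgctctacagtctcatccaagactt
TIMM10: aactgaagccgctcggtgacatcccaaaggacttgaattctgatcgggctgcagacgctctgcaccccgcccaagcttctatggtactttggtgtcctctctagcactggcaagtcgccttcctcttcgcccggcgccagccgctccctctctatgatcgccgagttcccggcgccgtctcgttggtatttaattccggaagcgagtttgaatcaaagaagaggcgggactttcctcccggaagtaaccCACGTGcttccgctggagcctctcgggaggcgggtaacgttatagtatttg
The E-box of TIMM10 spans the annotated start, and the window of TIMM9 holds none. What part an E-box has in these falls was not tested.

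**Figure D3:**
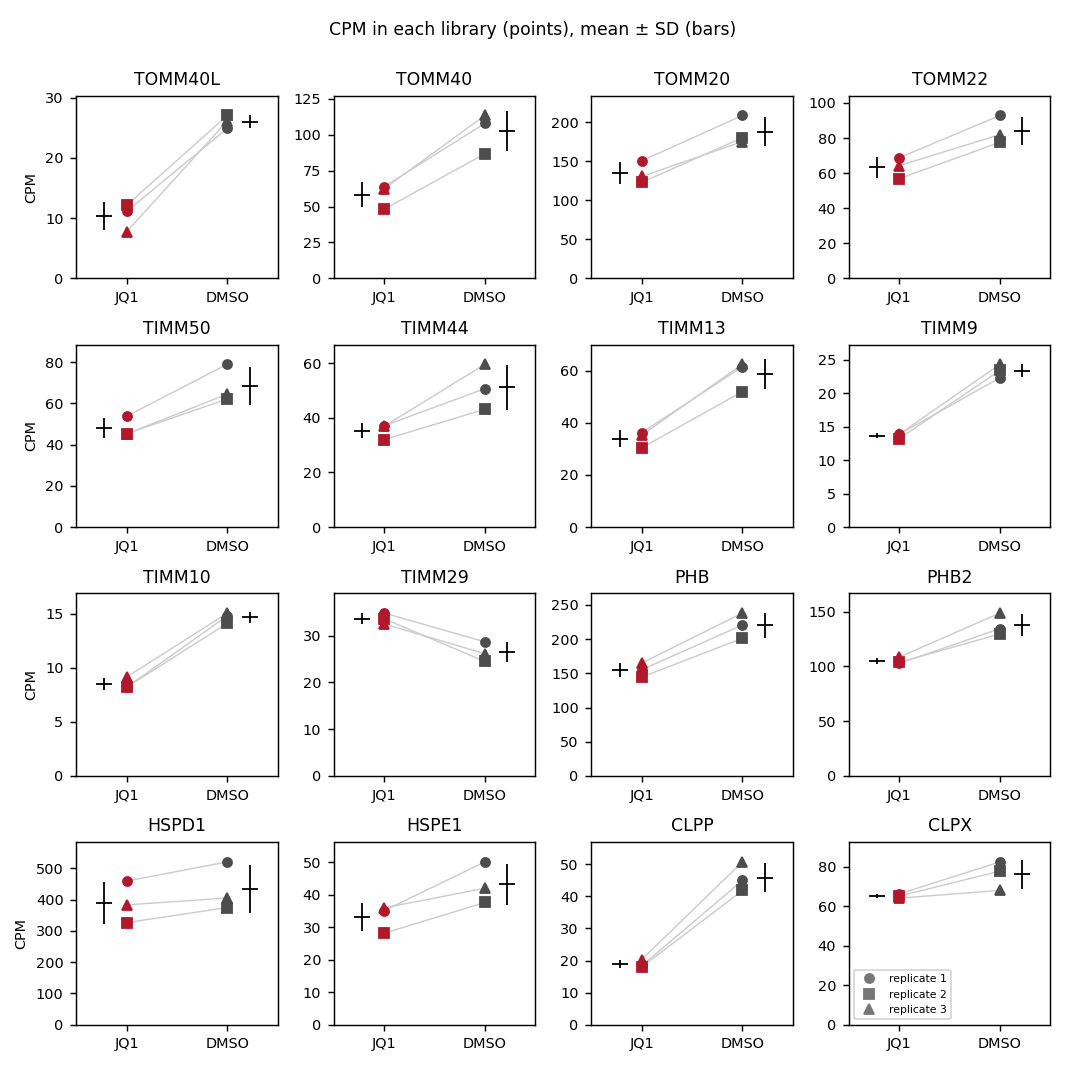
CPM of 16 genes in each library (y axis from 0), with JQ1 in red on the left and DMSO in grey on the right of each panel; marker shapes give the replicate number, lines join equal numbers and black bars are mean ± SD (n = 3). In JQ1 the libraries of TIMM9, TIMM10, TIMM13, CLPP and TOMM40L lie far below those of DMSO, while those of HSPD1 overlap and those of TIMM29 lie above.

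The subunits of the processing peptidase, which cuts presequences off, did not pass the test. PMPCA, the substrate-binding subunit, had 75.3, 63.9 and 69.2 CPM in JQ1 replicates 1, 2 and 3, against 73.0, 63.4 and 69.6 CPM in DMSO (log2 change 0.02 ± 0.09). PMPCB, the catalytic subunit, had 75.6, 74.4 and 68.2 CPM in JQ1, against 74.5, 72.4 and 63.8 CPM in DMSO (log2 change 0.05 ± 0.09). The edgeR adjusted p was 0.90 for PMPCA and 0.69 for PMPCB, and edgeR, DESeq2, limma-voom and an unadjusted p under 0.05 called 0 of the 2. By edgeR 20.6% of all tested genes fell and 15.9% rose, so with 2 genes such a count says little. Their summed level was 142 ± 7.56 CPM in JQ1 and 139 ± 7.56 CPM in DMSO (SD, n = 3 each, exact permutation p = 0.5), and the ratio of PMPCA to PMPCB reads was 0.996, 0.859 and 1.015 in JQ1, against 0.981, 0.876 and 1.092 in DMSO. That ratio averaged 0.957 ± 0.0850 in JQ1 and 0.983 ± 0.108 in DMSO (exact permutation p = 0.8).

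Among chaperones and membrane scaffolds 3 of 5 genes fell, which is 60.0%, and 0 rose, beside 20.6% and 15.9% of all tested genes. The count that rose was again 0 at an unadjusted p under 0.05 and with DESeq2 and limma-voom. PHB and PHB2, the prohibitins that build ring scaffolds in the inner membrane, fell together. PHB (now named PHB1) had 155, 144.5 and 165 CPM in JQ1 replicates 1, 2 and 3, against 221, 201 and 238 CPM in DMSO (log2 change -0.51 ± 0.10, edgeR adjusted p = 0.0026). PHB2 had 103, 104 and 108 CPM in JQ1, against 134, 130 and 149 CPM in DMSO (log2 change -0.39 ± 0.09, edgeR adjusted p = 0.0053). Both sets of libraries were clear of each other. The ratio of PHB to PHB2 reads was 1.51, 1.395 and 1.52 in JQ1, against 1.64, 1.55 and 1.60 in DMSO (exact permutation p = 0.1, the smallest possible, adjusted 0.225).

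HSPD1 and HSPE1, the subunits of the matrix chaperonin, are transcribed away from each other from a shared region on chromosome 2. HSPD1 had 459.5, 326.5 and 383 CPM in JQ1 replicates 1, 2 and 3, against 521, 375 and 405 CPM in DMSO. These libraries overlap, and the log2 change of -0.15 ± 0.16 did not pass the test (edgeR adjusted p = 0.47); with the block it was called (edgeR adjusted p = 0.045), and each pair was lower in JQ1 (-0.18, -0.20 and -0.08). HSPE1 had 35.2, 28.2 and 36.0 CPM in JQ1, against 50.2, 37.7 and 42.1 CPM in DMSO (log2 change -0.39 ± 0.13, edgeR adjusted p = 0.042). The HSPE1 call ended when JQ1 replicate 1 or 2 or DMSO replicate 1 or 3 was left out (edgeR adjusted p 0.06 to 0.16, log2 changes -0.43 to -0.27). The ratio of HSPD1 to HSPE1 reads was 13.1, 11.6 and 10.6 in JQ1, against 10.4, 9.95 and 9.64 in DMSO, which do not overlap (exact permutation p = 0.1, the smallest possible, adjusted 0.225). GENCODE lists 17 pseudogenes named after HSPD1, 26 after HSPE1 and 21 after PHB. Fewer are named after other genes, among them 9 after DNAJC19, 6 after TOMM22, 4 after TOMM20 and 3 each after TIMM9 and GRPEL2. Reads that fit a gene and a copy were not counted, so the levels of these genes are uncertain. Reads over same-strand overlaps could not be assigned either, which are 9.71% of HSPE1's exonic bases (with HSPE1-MOB4) and 9.56% of PHB2's (with SCARNA12). TRAP1, the mitochondrial HSP90, averaged 61.1 ± 11.0 CPM in JQ1 and 70.1 ± 12.1 CPM in DMSO (log2 change -0.20 ± 0.16, edgeR adjusted p = 0.35, and 0.0077 with the block).

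The windows of HSPE1 (chr2:197500129-197500428, plus strand) and HSPD1 (chr2:197500225-197500524, minus strand) are shown because they overlap on opposite strands and hold the same E-box, in capitals, at positions 197500357 to 197500362.
HSPE1: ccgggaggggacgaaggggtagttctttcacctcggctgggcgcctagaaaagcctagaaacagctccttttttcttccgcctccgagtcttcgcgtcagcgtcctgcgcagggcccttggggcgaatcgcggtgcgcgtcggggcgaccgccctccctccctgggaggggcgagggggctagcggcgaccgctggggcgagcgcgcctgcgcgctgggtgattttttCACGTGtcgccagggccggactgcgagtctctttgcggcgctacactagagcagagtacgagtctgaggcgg
HSPD1: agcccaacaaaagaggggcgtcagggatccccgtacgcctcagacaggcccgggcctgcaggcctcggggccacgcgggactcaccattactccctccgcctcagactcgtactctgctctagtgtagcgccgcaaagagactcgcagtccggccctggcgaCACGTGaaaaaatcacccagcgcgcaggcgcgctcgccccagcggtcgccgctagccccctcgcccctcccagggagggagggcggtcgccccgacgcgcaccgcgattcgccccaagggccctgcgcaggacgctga
The E-box lies 22 to 17 bases before the start of HSPE1 and 88 to 83 bases before that start of HSPD1. The RefSeq table lists another start of HSPD1 whose window holds no E-box.

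Of the 4 proteases CLPP fell, and CLPX, LONP1 and AFG3L2 did not pass the test. That is 25.0% lower, near the 20.6% of all tested genes. CLPP, the peptidase barrel of the matrix protease ClpXP, had 18.4, 18.0 and 20.3 CPM in JQ1 replicates 1, 2 and 3, against 45.0, 41.8 and 50.7 CPM in DMSO. Every JQ1 library lay far below every DMSO library, a fall of 2.43-fold (log2 change -1.28 ± 0.11, edgeR adjusted p = 2.6e-05, the smallest of the 39 genes). CLPX, the ATP-driven unfoldase that feeds CLPP, had 66.4, 65.2 and 64.2 CPM in JQ1, against 82.6, 77.9 and 68.1 CPM in DMSO (log2 change -0.22 ± 0.09, edgeR adjusted p = 0.081, and 0.0038 with the block); it was called without DMSO replicate 3 (log2 change -0.29). The ratio of CLPX to CLPP reads was 3.62, 3.63 and 3.16 in JQ1, against 1.84, 1.86 and 1.34 in DMSO. The ratio averaged 3.47 ± 0.266 in JQ1 and 1.68 ± 0.293 in DMSO, a 2.06-fold difference (exact permutation p = 0.1, the smallest possible, adjusted 0.225).

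LONP1, the ATP-dependent matrix protease, had 82.8, 75.7 and 95.9 CPM in JQ1 replicates 1, 2 and 3, against 94.2, 89.2 and 126 CPM in DMSO (log2 change -0.28 ± 0.14, edgeR adjusted p = 0.14, and 0.00036 with the block). AFG3L2, a protease of the inner membrane facing the matrix, had 169, 148.5 and 155 CPM in JQ1, against 152, 141 and 128 CPM in DMSO (log2 change 0.17 ± 0.09, edgeR adjusted p = 0.19, and 0.02 with the block). In both genes the libraries of the groups overlapped.

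**Figure D4:**
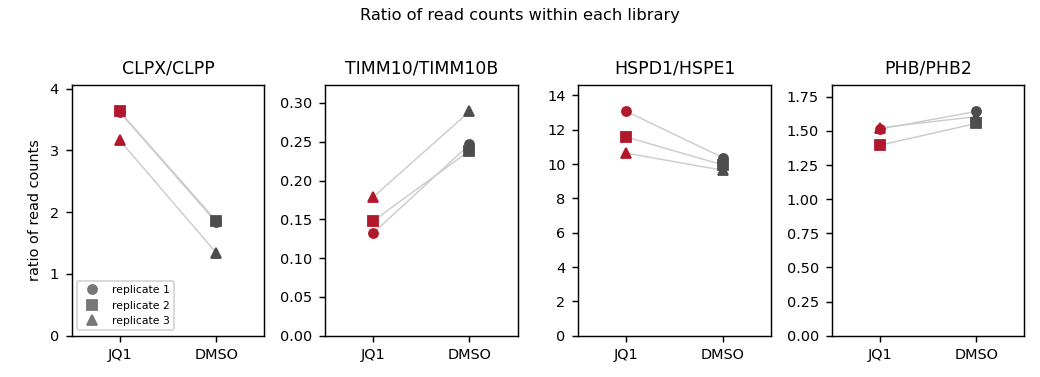
Ratio of read counts of 4 gene pairs within each library (y axis from 0), JQ1 in red on the left and DMSO in grey on the right of each panel, with lines joining equal replicate numbers. The CLPX/CLPP ratio is 3.16 to 3.63 in JQ1 and 1.34 to 1.86 in DMSO, and the other 3 ratios also do not overlap between the groups. The 4 pairs shown are those, of 9 compared, whose ratios do not overlap.

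**Figure D5:**
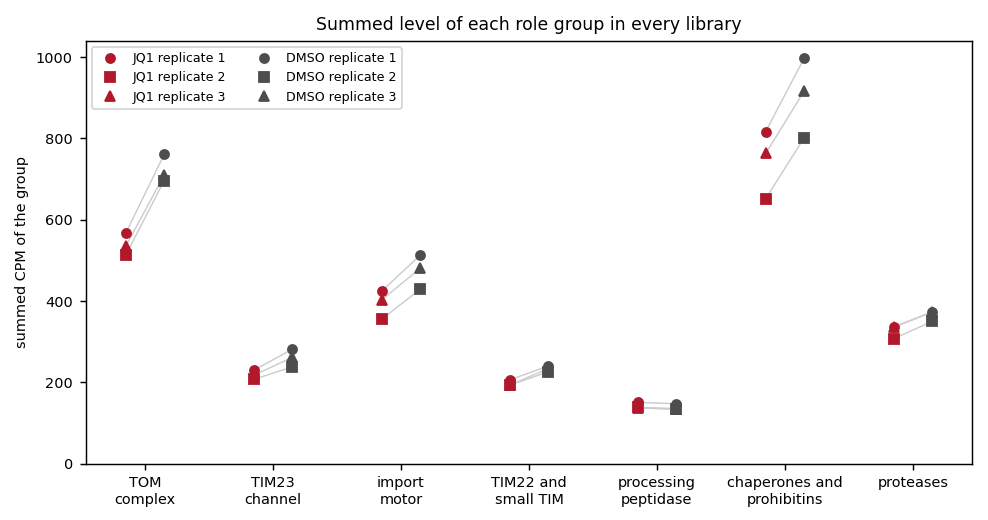
Summed CPM of each role group in every library (y axis from 0), JQ1 in red on the left and DMSO in grey on the right of each group, with lines joining equal replicate numbers. Every line runs lower on the JQ1 side except in the processing peptidase, where the lines are nearly flat.

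The summed level relative to DMSO was 0.838 for the TIM23 channel, 0.832 for the import motor, 0.845 for the TIM22 and small TIM genes and 0.894 for the proteases (exact permutation p = 0.1 each, the smallest possible). It was 0.822 for the chaperones and prohibitins, whose libraries overlapped (exact permutation p = 0.2), and 1.024 for the processing peptidase.

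Compared per length, as CPM per kilobase of annotated exons, HSPD1 had the highest level of the 41 genes, at 91.8 in JQ1 and 102 in DMSO. PHB2, TIMM23, PHB, TOMM7 and TOMM20 followed in JQ1, between 38.0 and 42.0 CPM per kilobase, and in DMSO the next after HSPD1 were PHB, PHB2, TOMM20 and TIMM23, between 49.7 and 57.4 CPM per kilobase. Lowest among the 39 tested genes were PAM16, with 1.03 CPM per kilobase in JQ1 and 0.671 in DMSO, and TOMM5, with 1.73 in JQ1 and 1.91 in DMSO. Reads over 18.7% of TOMM5's exonic bases, which lie in exons of AL138752.2 and AL513165.2 on the same strand, could not be assigned. The levels of TOMM5 and PAM16 are therefore uncertain. TIMM9 and TIMM10 had 9.09 and 11.0 CPM per kilobase in JQ1, against 15.6 and 18.9 in DMSO.

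Of 37 other tested genes of mitochondrial import, folding and proteolysis 14 fell and 3 rose, which is 37.8% and 8.11%, with a median log2 change of -0.14. Of all tested genes 20.6% fell and 15.9% rose, with a median of 0.0036. Among the falls were GFER (-1.05 ± 0.13) and CHCHD4 (-0.99 ± 0.14), the oxidase and the receptor that trap small TIM proteins between the membranes by disulfide bonds. STOML2, a scaffold of the inner membrane, had 37.8 CPM in JQ1 and 63.8 CPM in DMSO (-0.76 ± 0.09), and HTRA2, a protease between the membranes, fell by 0.62 ± 0.11. The 3 that rose were LACTB, a filament-forming protein between the membranes, with 15.4 CPM in JQ1 and 7.84 CPM in DMSO (0.98 ± 0.14), PITRM1, the protease that degrades cleaved presequences (0.65 ± 0.10), and SPG7, the partner of AFG3L2 (0.57 ± 0.10).

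Of 17 tested regulators of mitochondrial biogenesis and stress 5 fell and 1 rose, which is 29.4% and 5.88%. Of all tested genes 20.6% fell and 15.9% rose. Besides MYC (-1.41 ± 0.10), PPARGC1B, a coactivator of mitochondrial genes, fell by 1.19 ± 0.19, TFB2M, a transcription factor of the mitochondrial genome, by 1.00 ± 0.13, and PPRC1, a relative of PPARGC1B, by 0.67 ± 0.14, whereas NRF1, a factor for nuclear genes of mitochondria, rose by 0.61 ± 0.11. The block called 7 of these regulators lower and 4 higher, beside 29.6% and 27.3% of all tested genes. Without JQ1 replicate 3, 2 regulators were called higher. Of 16 cytosolic chaperones that deliver precursors 2 fell and 3 rose, which is 12.5% and 18.8%. These shares are not far from the 20.6% and 15.9% of all tested genes. CCT5, a subunit of the cytosolic chaperonin, fell by 0.51 ± 0.09, while the HSP40 genes DNAJB6 and DNAJB1 rose by 0.43 ± 0.10 and 0.35 ± 0.10 and HSP90AA1 by 0.37 ± 0.12. In this list the block called 5 lower, beside 29.6% of all tested genes. The count that rose was 1 without JQ1 replicate 1, JQ1 replicate 2 or DMSO replicate 3.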

How the data were processed

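Per the labels' protocols, RNA was extracted with a Qiagen mini kit and libraries were made with an Illumina stranded total RNA kit. The deposited files hold raw counts of reads per gene as the authors made them, in the layout written by the STAR aligner, and the submitters' processing notes name GRCh38, with annotation and aligner version not given in the sources used here. Counts of the reverse strand were used, which held 20.9 to 22.6 times those of the other strand. Reads unmapped (1.48% to 1.99%), mapping to several places (14.1% to 15.7%), in no gene (18.8% to 26.1%) or ambiguous (3.38% to 3.88%) stayed out of totals. Names, types, exons and pseudogenes came from GENCODE 29, in which 57492 of 58096 identifiers were found without version.

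Genes were kept with filterByExpr (minimum count 10, minimum total 15), scaled by TMM and tested with the robust quasi-likelihood F test (glmQLFTest) of edgeR 4.0.16 under R 4.3.3, with group as the only term; the SE equals the log2 change over the root of the F statistic. The procedure was tested on simulated data in which libraries were drawn independently, so variation shared by same-numbered libraries was not simulated. Single values were compared by exact permutation (Python 3.11.15). The members, lists and tests were chosen with earlier results of these data known. All 41 genes could be named; values per library are given for up to 3 genes per role with the smallest p and for the 9 pairs compared, and up to 4 genes per direction from other lists. Those of PAM16, TIMM29 and AFG3L2 were added after their values were seen. The values of 1 gene among the cytosolic chaperones are not reported here. Deviations from group means correlated between same-numbered libraries (0.33, 0.43 and 0.37 for replicates 1, 2 and 3, across genes). Other combinations lay between -0.25 and -0.14, but deviations cancel within a group, so positive values for same numbers force the others down. The numbers were taken as pairs, a pairing that comes from the same counts as the p-values with the block. Alternatives were DESeq2 1.42.0, limma-voom (limma 3.58.1), other scalings and filters, unstranded counts, the replicate block, a test against 1.5-fold and each library left out.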

Additional observations from a re-analysis of the deposited data

Results flagged for a closer look

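Reads on the opposite strand, which the comparisons above leave out, reached a mean of at least 1 CPM in JQ1 for 10 of the genes. For 3 of the 10, which is 30.0%, every JQ1 library lay above every DMSO library, and for 1 every JQ1 library lay below; among all 4511 genes at that level 24.1% lay above and 13.9% below. The shares of the 10 genes were near those of all such genes. The minimum was set on JQ1 alone, which admits genes higher in JQ1 more readily. The shares above and below therefore cannot be set against each other. Opposite-strand reads of TRAP1 averaged 14.5 ± 2.44 CPM in JQ1 and 10.55 ± 2.06 CPM in DMSO (SD, n = 3 each), those of LONP1 3.36 ± 0.527 CPM in JQ1 and 2.18 ± 0.374 CPM in DMSO, and those of GRPEL1 2.08 ± 0.401 CPM in JQ1 and 1.21 ± 0.222 CPM in DMSO. Those of PMPCB were lower in JQ1, at 7.55 ± 1.48 CPM in JQ1 and 12.97 ± 0.390 CPM in DMSO (2-sided exact permutation p = 0.1 for each of the 4, the smallest possible).

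The neighbours that overlap TRAP1 and PMPCB on the other strand were named after their values were seen. DNASE1, which overlaps 29.3% of the exonic bases of TRAP1, averaged 107 ± 18.8 CPM in JQ1 and 74.4 ± 15.2 CPM in DMSO, and DNAJC2, which overlaps 12.99% of those of PMPCB, averaged 36.5 ± 4.63 CPM in JQ1 and 59.6 ± 2.013 CPM in DMSO. Their part in the opposite-strand reads was not tested.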

How the results depend on the processing

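Over all genes, 2227 rose and 2883 fell, with 1707 to 1901 and 2436 to 2627 when 1 library was left out. With the replicate block, 3813 of all genes rose, and 3 import and chaperone genes, 5 other import genes and 4 regulators rose, while 5 cytosolic chaperones fell. Against 1.5-fold, 246 of all genes rose and 899 fell; 0 import and chaperone genes rose and 2 fell, 1 other import gene rose and 2 fell, 0 regulators rose and 3 fell, and 0 cytosolic chaperones rose and 0 fell. Without a filter, 2 regulators rose. With 1 library left out, 0 to 2 import and chaperone genes rose (0 without JQ1 replicate 1 or DMSO replicate 2, 2 without DMSO replicate 3) and 12 to 16 fell, 1 to 2 regulators rose and 1 to 3 cytosolic chaperones rose. Under the other scalings, filters and tools, 16 to 19 import and chaperone genes fell.

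Changes of sign concerned uncalled values. With library size alone, the log2 change was -0.044 for PMPCA, -0.0077 for PMPCB, -0.036 for TIMM22 and -0.019 for TIMM8A; it was -3.7e-05 for PMPCA without a filter, -0.020 for TIMM22 with unstranded counts and 0.0027 for TIMM23B with upper-quartile factors. With 1 library left out the log2 changes were -0.29 to 0.00080 for HSPD1, -0.043 to 0.074 for PMPCA, -0.0085 to 0.10 for PMPCB, -0.10 to 0.041 for TIMM10B, -0.12 to 0.066 for TIMM17A, -0.049 to 0.12 for TIMM22, -0.070 to 0.067 for TIMM23B and -0.063 to 0.12 for TIMM8A. Differences in log2 ratio were -0.030 to 0.30 for TIMM17A/TIMM17B, -0.021 to 0.39 for TIMM8A/TIMM8B and -0.12 to 0.043 for PMPCA/PMPCB. The cause of these changes was not tested. The median of all genes moved by less than 0.1 under every scaling. The replicate block, used because the numbers paired the libraries, changed no call among the 39 genes other than the 9 given above. PAM16 had the fewest reads of the 39 genes and the largest SE (0.26), and 3 libraries per group keep exact p-values at 0.1 or above.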
